A study of Mus musculus with 6 samples.

Results

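Mouse genes that still carry the name of a RIKEN cDNA clone, a symbol ending in Rik, were followed in liver. Members were all rows of the deposited tables with such a symbol and a mean normalised value of at least 100 over the 6 libraries: 271 of 18720 rows, out of 808 Rik rows of any level. They carry 270 distinct symbols, since C730027H18Rik stands on 2 rows. They were chosen by their mean value over both groups, so their levels are a description, and the difference between the groups was not used. Matched by symbol, 266 had a record in GENCODE M21, of which 122 were protein-coding and 144 non-coding. The non-coding records were 134 long non-coding RNAs, 8 pseudogenes and 2 loci still awaiting experimental support (type TEC).

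RIKEN symbols were given to full-length cDNA clones before their function was known. Some of these loci have since proved to encode conserved proteins, often very small or very large ones. Others make long non-coding RNAs, which can lie antisense to a coding gene, start from the promoter of a neighbouring gene on the other strand, or serve as the precursor from which a microRNA (miRNA) or a small nucleolar RNA (snoRNA) is cut. In liver, Rik loci include the non-coding RNA lncLSTR (C730036E19Rik), known from work on bile acid and triglyceride metabolism, and 0610005C13Rik, a liver-enriched transcript.

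The libraries were poly(A) RNA of the livers of male C57BL/6 mice that were 1 year old. All mice, controls included, were on a high-fat diet (HFD) and were injected intraperitoneally 2 times a week for 12 weeks, either with R159, a compound known here by its code name (HFD-R159, 3 libraries), or with vehicle (HFD-Veh, 3 libraries). A group without the diet was not analysed here. Nothing in the labels says that the libraries are separate animals. The p-values therefore stand for the spread among these libraries, part of which may be technical. In bulk liver, fewer cells of a type and less RNA per cell cannot be told apart.

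Values are normalised estimated read counts, listed for replicates 1, 2 and 3 of each group. They are not per unit of length, so levels are compared between groups and not between genes. Log2 fold changes are R159 minus vehicle on the log2(value + 1) scale, with their standard error (SE) and limma's adjusted p; a locus is called higher or lower at an adjusted p under 0.05.

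Of the 271 loci, 8 hold an annotated miRNA on their own strand and 3 hold snoRNAs. This set is complete for the annotation, but was looked at after the values were seen. The mature miRNA sequences below are shown because the loci with the 2nd and the 6th largest rise of all 271 are hosts of 2 well-known families. They come from RefSeq (GRCm38.p6), run 5' to 3', and have the seed, bases 2 to 8, in capitals; only the host transcripts were measured, not the mature miRNAs.
mmu-miR-29b-3p: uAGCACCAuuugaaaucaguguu
mmu-miR-29c-3p: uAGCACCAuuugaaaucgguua
mmu-let-7a-5p: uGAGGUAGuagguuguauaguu
mmu-let-7d-5p: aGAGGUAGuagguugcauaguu
mmu-let-7f-5p: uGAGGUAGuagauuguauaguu
mmu-miR-101a-3p: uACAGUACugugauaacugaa
mmu-miR-1839-5p: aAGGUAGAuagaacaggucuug
mmu-miR-1249-3p: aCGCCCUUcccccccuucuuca

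The first pair sits in A330023F24Rik and shares the seed AGCACCA, held by 4 of 1738 mature mouse miRNAs in that table. All 3 let-7 sequences sit in 6720427I07Rik and share the seed GAGGUAG, held by 13. Each of the last 3 seeds is held by 1 mature miRNA of the table. E130102H24Rik holds miR-101a, 2900076A07Rik holds miR-1839 and the protein-coding 5031439G07Rik holds miR-1249.

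Rik loci were more often higher than lower in R159 livers. Of 271, 99 were called higher (36.5%) and 15 lower (5.54%), and 157 were not called. Over all 16594 genes tested, 12.8% were called higher and 14.2% lower, 27% in either direction. Among the 12002 genes with a mean of at least 100, 14.2% were called higher and 18.7% lower. The median log2 fold change was 0.59 over the members and 0.00 over all genes tested, and 204 members had a value above 0. The 2 groups' values did not overlap in 138 members with R159 higher and in 25 with R159 lower, where the background was 22.5% and 23.6% over all genes tested and 22.6% and 29.3% over those with a mean of at least 100. The plot of ranked fold changes shows the long upper end of this distribution. Leaving out a vehicle library lowered the number called most: 60, 51 and 52 members were higher, and 5, 3 and 5 lower, without vehicle replicates 1, 2 and 3.

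**Figure D1:**
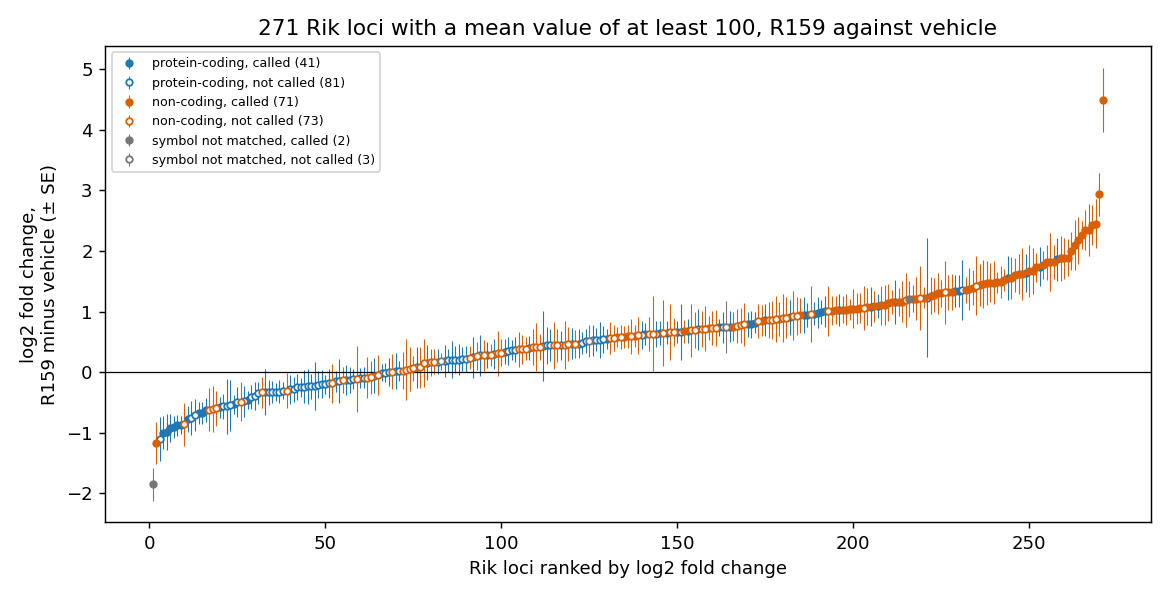
Log2 fold change (R159 minus vehicle) with its SE for each of the 271 loci in order of size, colored by GENCODE class, with filled points for called loci. Values run from -1.86 to 4.50, and the upper end holds mostly non-coding loci.

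The mean over both groups lets in loci that reach 100 through 1 group alone. There were 54 members with a mean of at least 100 in R159 only, 2 in vehicle only, and 215 in each group. Of the 215, 69 were called higher and 15 lower, with a median of 0.44. Of the 54, 30 were called higher, which the choice favours. Just above the limit stood C230037L18Rik, 1700007L15Rik and 4930524O07Rik with means of 100.07, 100.28 and 100.5. Just below it were 1700087I21Rik, 1500011B03Rik and 2210039B01Rik with 99.97, 99.8 and 98.8. Among the 366 tested Rik rows under the limit, 58 were called higher and 2 lower, with a median of 0.81.

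Non-coding status went with most of the rise. Of 144 non-coding members 70 were called higher (48.6%) and 1 lower, with a median of 0.88. Of 122 protein-coding members 28 were called higher (23.0%) and 13 lower, with a median of 0.20. Both counts include members that reached 100 through R159 alone, a choice that favours a rise. With a mean of at least 100 in each group, 43 of 97 non-coding members were called higher (44.3%, median 0.72). Among coding members it was 25 of 114 (21.9%, median 0.18). The other genes below were not limited in this way. The other non-coding genes with a mean of at least 100 were called higher in 44.7% of 497 and lower in 7.24%, with a median of 0.82. The share of non-coding Rik loci called higher was thus near that of non-coding genes in general. The other coding genes were called higher in 11.8% of 10915 and lower in 19.7%, with a median of -0.12. Values of both groups were apart, with R159 higher, in 98 non-coding and 37 coding members, against 54.9% of the other non-coding and 20% of the other coding genes. They were apart with R159 lower in 2 and 22, against 11.1% and 30.9%. Unnamed loci of the other common kind, with a Gm number, had 172 of 422 called higher and 27 lower. Without vehicle replicates 1, 2 and 3, 45, 41 and 41 non-coding members were called higher, and 14, 10 and 11 coding ones. Without R159 replicate 2, 15 coding members were called higher. By RefSeq's classes, 65 of 125 long non-coding members were higher and 1 lower, and 26 of 119 protein-coding members were higher and 13 lower.

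Among the types of non-coding record, those that start from the promoter of another gene on the opposite strand had 10 of 14 called higher (median 1.19). Processed transcripts had 25 of 42 (59.5%), intergenic ones 21 of 44 (47.7%) and antisense ones 13 of 33 (39.4%), beside 44.7% of the other non-coding genes with a mean of at least 100. None of the 8 pseudogenes was called higher and 1 was called lower. Of non-coding members with 1 exon 17 of 40 (42.5%) were called higher, and of those with more exons 53 of 104 (51.0%). The difference between types was not tested.

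The largest rise was that of D330041H03Rik, a non-coding transcript that overlaps Abca3, a lipid transporter gene, on the opposite strand. It had 318, 1156 and 852 in R159 and 40.2, 40.8 and 14.9 in vehicle. Every R159 library lay far above every vehicle library, with R159 replicate 1 the lowest of its group. The log2 fold change was 4.50 (SE 0.54, adjusted p = 0.00311). Abca3 itself went the other way, with 2263 ± 945 in R159 and 6487 ± 1268 in vehicle (SD, n = 3), a log2 fold change of -1.58 (limma, adjusted p = 0.00613).

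A330023F24Rik, the miR-29b-2 and miR-29c host, had 509, 295 and 351 in R159 and 66.6, 52.9 and 31.3 in vehicle. The groups were well apart, and the log2 fold change was 2.94 (SE 0.35, adjusted p = 0.00311). miR-29 is known for targeting collagen and other matrix transcripts. 6720427I07Rik, the host of let-7a-1, let-7d and let-7f-1, had 169, 249 and 142 against 37.4, 37.9 and 30.2. Its vehicle values were close together and all under the lowest R159 value (2.34, SE 0.33, adjusted p = 0.00386). let-7 is a family of abundant miRNAs of differentiated cells.

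2900076A07Rik, the miR-1839 host, had 385, 296 and 279 against 119.6, 84.6 and 59.9 (1.89, SE 0.31, adjusted p = 0.00494). E130102H24Rik, the miR-101a host, had 393, 158 and 139.7 against 69.8, 87.5 and 47.8, with R159 replicate 1 far above the others (1.62, SE 0.43, adjusted p = 0.0251). 1110051M20Rik, which holds the predicted miRNA Gm22071, had 270.2, 506 and 352 against 242, 146 and 189 (0.95, SE 0.30, adjusted p = 0.0431). Groups did not overlap in these 3 loci either. 5031439G07Rik, the miR-1249 host, was the host called lower, with 2299.7, 2234 and 2076 against 3972, 3753 and 4416 (-0.87, SE 0.14, adjusted p = 0.00494). Both groups were tight and apart. 3110082I17Rik (miR-339) and D030055H07Rik (miR-135a-1) were not called (adjusted p = 0.307 and 0.470), and their groups overlapped. E130102H24Rik lost its call without vehicle replicate 1 or 3 (adjusted p = 0.0620 and 0.0860) and with the length trend removed, where its value fell to 0.83 (0.261). It was also not called without the empirical Bayes trend (0.0559) or after rescaling without the 20 highest genes (0.0557). 5031439G07Rik lost its call with the length trend removed (-0.41, 0.0758). 1110051M20Rik lost it without R159 replicate 2 or 3 (0.116 and 0.0773) or vehicle replicate 1, 2 or 3 (0.0545, 0.156 and 0.107), without the empirical Bayes trend (0.0768) and after that rescaling (0.0632). Its call was lost with a replicate block too (0.0675).

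The 3 snoRNA hosts, a set looked at after the values were seen, were all called higher, where the background was 12.8% of all genes tested. Among the other genes with a mean of at least 100 it was 44.7% of the non-coding and 11.8% of the coding ones. snoRNAs guide the chemical modification of ribosomal RNA, and their hosts are spliced transcripts whose introns carry them. 1110038B12Rik, which holds Snord52, had 1149, 1590.2 and 677 against 586, 428 and 284 (1.37, SE 0.35, adjusted p = 0.0209). 2410006H16Rik, which holds Snord49a, Snord49b and Snord65, had 883, 992 and 1114 against 659, 412 and 419.8 (1.03, SE 0.22, adjusted p = 0.0117). In both the lowest R159 library was above the highest vehicle library. 2410002F23Rik, which is protein-coding in GENCODE, holds Snord88a and Snord88c. It had 1428, 1241 and 636 against 636, 558 and 483, so that R159 replicate 3 met the highest vehicle value (0.90, SE 0.29, adjusted p = 0.0479). The last call was lost without R159 replicate 1 or 2 (adjusted p = 0.111 and 0.130) or vehicle replicate 1, 2 or 3 (0.0792, 0.114 and 0.141), without the empirical Bayes trend (0.105) and after rescaling without the 20 highest genes (0.117). 1110038B12Rik lost its call without R159 replicate 2 (0.0644) or vehicle replicate 2 or 3 (0.0550 and 0.0732) or the empirical Bayes trend (0.0629), and 2410006H16Rik without vehicle replicate 2 (0.0547). With the trend of transcript length removed, 2410006H16Rik, whose longest transcript has 462 nt, had a log2 fold change of 0.04 (adjusted p = 0.911) and 1110038B12Rik 0.70 (adjusted p = 0.130).

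**Figure D2:**
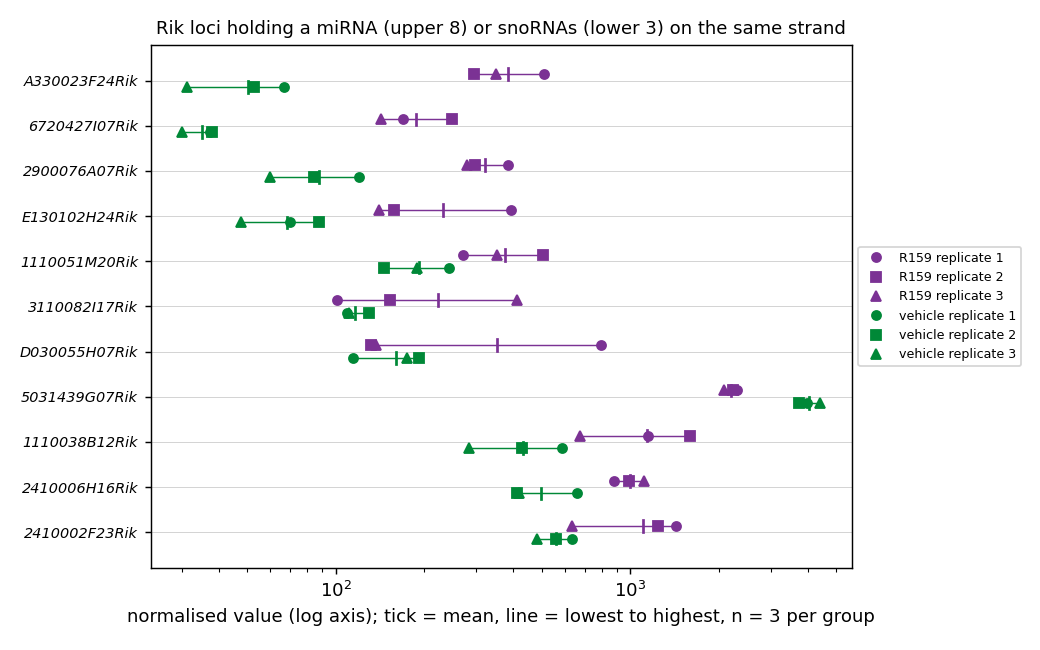
Normalised value (log axis) of each miRNA host (upper 8) and snoRNA host (lower 3) in each library, with the mean as a tick and a line from the lowest to the highest value. A330023F24Rik and 6720427I07Rik have the widest gap between R159 and vehicle, 5031439G07Rik is lower in R159, and D030055H07Rik has 1 R159 library (793) far above the other values.

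Among the other large rises, 1810019D21Rik had the largest normalised values of the 10, on a scale that is not per length. It is listed in RefSeq as the antisense transcript of Esrp2, the gene of a splicing regulator of epithelial cells and hepatocytes. Its values were 7866, 5236 and 4433 in R159 and 987, 1273 and 1298 in vehicle, with no overlap (2.27, SE 0.23, adjusted p = 0.00299). Esrp2 had 5469 ± 282 in R159 and 5107 ± 703 in vehicle (SD, n = 3), with a log2 fold change of 0.11 that was not called (limma, adjusted p = 0.636). B230217O12Rik, an intergenic RNA, had 213, 189.8 and 174 against 19.9, 56.9 and 35.2 (2.45, SE 0.40, adjusted p = 0.00497). E230016M11Rik, which overlaps the stress gene Gadd45a on the other strand, had 181, 173 and 241 against 48.2, 34.0 and 27.3 (2.43, SE 0.34, adjusted p = 0.00373). Gadd45a was not called (0.12, adjusted p = 0.838).

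A930036K24Rik had 184, 145 and 233 against 19.9, 59.8 and 36.9 (2.35, SE 0.43, adjusted p = 0.00681). A530020G20Rik, antisense to the choline transporter-like gene Slc44a3, had 780.1, 452 and 284 against 97.5, 144 and 75.5 (2.18, SE 0.39, adjusted p = 0.00636). Slc44a3 was not called (-0.61, adjusted p = 0.129). 3110045C21Rik had 196, 325 and 187 against 50.3, 32.4 and 88.1 (2.10, SE 0.41, adjusted p = 0.00815). 4933439C10Rik had 497, 362 and 322 against 117, 120.2 and 63.3 (1.997, SE 0.32, adjusted p = 0.00476), and overlaps the zinc finger gene Zkscan17, which was called lower (-0.92, adjusted p = 0.0259). All values of these loci were higher in R159 than in vehicle. The 10 largest rises, all non-coding, kept their call under every setting tried, but 7 of them had a vehicle mean under 100 and so reached the limit through R159 alone, a choice that favours a rise. The other 3 were 1810019D21Rik, A530020G20Rik and 4933439C10Rik. In all, 72 of the 271 members were called higher with a log2 fold change of at least 1, and 60 of the 72 were non-coding. Members that reached 100 through R159 alone are included. The share of all genes past this limit was not counted, so whether Rik loci stand out here is not known.

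**Figure D3:**
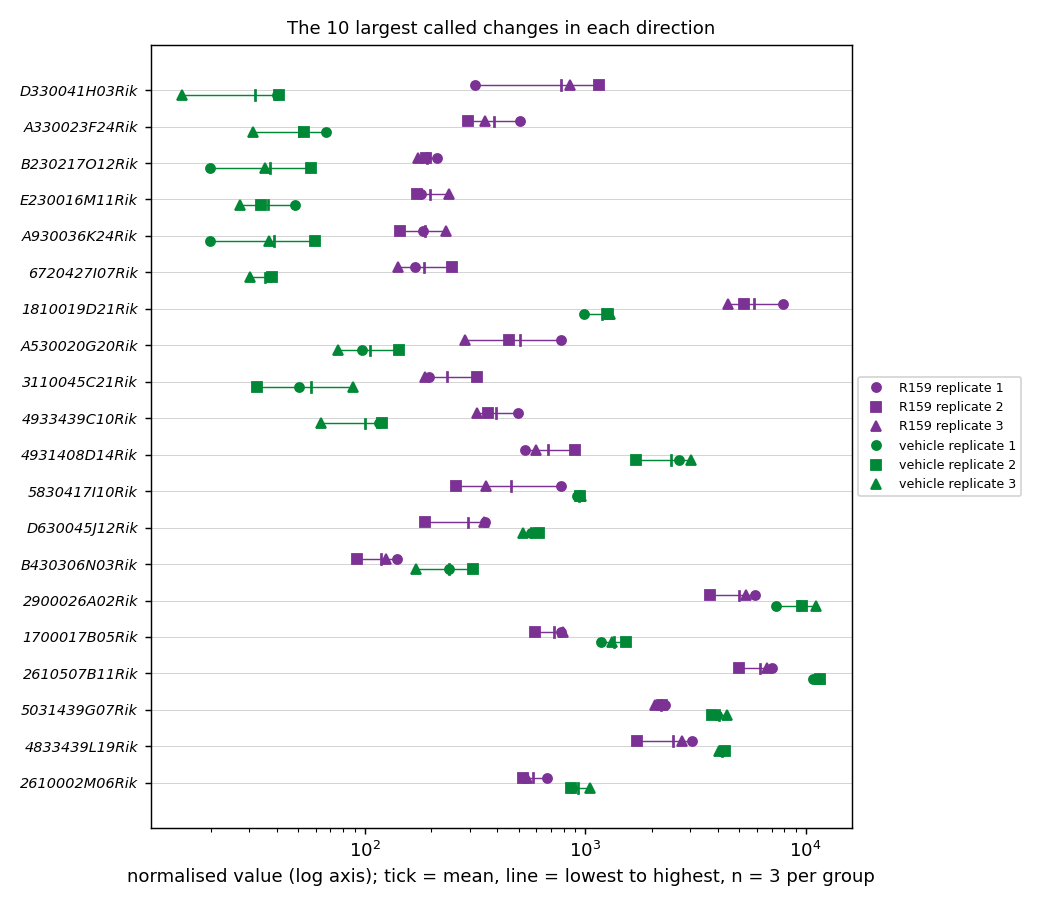
Normalised value (log axis) in each library for the 10 largest called rises (upper rows) and the 10 largest called falls (lower rows) among loci whose groups do not overlap; ticks are means and lines run from the lowest to the highest value. D330041H03Rik has the widest gap, and the falls are smaller than the rises.

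Liver-enriched and other long non-coding members listed by role included both called and not called loci. 0610005C13Rik, which overlaps the branched-chain aminotransferase gene Bcat2 on the other strand, had the largest normalised values among them, on a scale that is not per length. It had 15276, 17140.0 and 16975 in R159 and 7078, 7798 and 9381 in vehicle, with the groups far apart (1.03, SE 0.17, adjusted p = 0.00485). Bcat2 was called higher as well, with 1599 ± 124 against 746 ± 92.9 (SD, n = 3; 1.10, limma, adjusted p = 0.00409). lncLSTR (C730036E19Rik) had 1556, 634 and 784 against 327, 453 and 259.7, with R159 replicate 1 the highest (1.44, SE 0.34, adjusted p = 0.0166). It was not called without vehicle replicate 3 (adjusted p = 0.0616), with the length trend removed (0.89, adjusted p = 0.155) or without the empirical Bayes trend (adjusted p = 0.0529).

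1600020E01Rik, an antisense RNA, had 533, 525 and 427 against 179, 128 and 131 (1.77, SE 0.23, adjusted p = 0.00345). 0610031O16Rik had 1989.8, 1650.1 and 1727 against 1028, 1304 and 1287 (0.57, SE 0.17, adjusted p = 0.0334). Neither locus had overlapping groups. 1810008I18Rik had 6754, 5363 and 7537 against 2355, 3206 and 7041, where vehicle replicate 3 lay among the R159 values (0.79, SE 0.35, adjusted p = 0.124). It was called without that library (1.24, adjusted p = 0.0189). 9330175E14Rik was likewise not called (1.22, SE 0.53, adjusted p = 0.112), but was without R159 replicate 3 (1.71, adjusted p = 0.0397). The call of 0610031O16Rik was lost without R159 replicate 3 (adjusted p = 0.0588) or vehicle replicate 1, 2 or 3 (0.128, 0.0869 and 0.0741). It was also lost with the length trend removed (0.22, 0.453), after rescaling without the 20 highest genes (0.118), without the empirical Bayes trend (0.0715) and with a replicate block (0.0682). The pseudogene 9030619P08Rik had overlapping groups (0.41, SE 0.39, adjusted p = 0.456).

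By gene body, 101 members overlap a tested gene on the opposite strand, and 86 of them overlap a coding one. An overlap of 1 base was enough, as for 2810002D19Rik with Api5. GENCODE gives the type antisense to 33 members. The share of all genes with such an overlap was not counted. In the 38 pairs of a called-higher member and a coding partner, the partner was called higher in 7, lower in 4 and not called in 27. Of the other coding genes with a mean of at least 100, 11.8% were called higher and 19.7% lower. Over the 99 pairs with a coding partner the median log2 fold change was 0.67 for the member and -0.11 for the partner, and Spearman's rho between both was 0.15. This is a description over pairs, which share the libraries and in part a partner. The 4 pairs of a member called higher and a partner called lower were D330041H03Rik with Abca3, 4933439C10Rik with Zkscan17, 2700046G09Rik with Sgms1 and C130046K22Rik with Gosr2. The other way round, 4931406C07Rik was called lower (-0.58) and its coding partner Taf1d higher (1.36, limma, adjusted p = 0.00604). Sgms1 makes a sphingomyelin synthase and Gosr2 a Golgi transport protein. The library kit marks strand, but the sources used here do not say whether the counting used strand, so reads of overlapping partners cannot be told apart with certainty.

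The largest fall was that of 4931408D14Rik, classed as a long non-coding RNA by RefSeq and not matched in GENCODE. It had 532, 902 and 598 in R159 and 2670.2, 1695 and 3022 in vehicle. All R159 values lay under the lowest vehicle value, and the log2 fold change was -1.86 (SE 0.27, adjusted p = 0.00393). 5830417I10Rik, a pseudogene, had 774, 259 and 356 against 914, 945 and 956 (-1.18, SE 0.35, adjusted p = 0.0362), with tight vehicle values all above R159 replicate 1. 1500004A13Rik, another member on its opposite strand, had 460.3, 295 and 293 against 151, 173 and 168 and was called higher (1.05, SE 0.25, adjusted p = 0.0164). Without any 1 of vehicle replicates 1, 2 and 3, neither of this pair was called (adjusted p = 0.0834, 0.0908 and 0.0970 for 5830417I10Rik, and 0.0586, 0.0557 and 0.0513 for 1500004A13Rik). 5830417I10Rik was also not called without R159 replicate 2 or 3 (0.0923 and 0.0934), with the length trend removed (-0.73, 0.0925), without the empirical Bayes trend (0.0884), after upper quartile rescaling (0.0514) or after rescaling without the 20 highest genes (0.0523). 1500004A13Rik was not called after the last (0.0507).

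The other 13 loci called lower were protein-coding, and several have very long transcripts. 2610507B11Rik (Kiaa0100), a member of the bridge-like lipid transfer protein family, had 7017, 4972 and 6677 against 10799, 11648 and 11580.2 (-0.88, SE 0.17, adjusted p = 0.00832). 2900026A02Rik (Kiaa1671) had 5863, 3666 and 5361 against 7302, 9668 and 11158 (-0.92, SE 0.23, adjusted p = 0.0186). D630045J12Rik (Kiaa1549) had 349.8, 188 and 347 against 566, 617 and 524 (-0.9999, SE 0.27, adjusted p = 0.0247). In each of the 3, R159 replicate 2 had the lowest value and the groups did not overlap. 1700017B05Rik had 777, 595 and 791 against 1186, 1532 and 1319.6 (-0.90, SE 0.18, adjusted p = 0.00953). B430306N03Rik (Treml6), a receptor of the TREM-like family of myeloid cells, had 139.8, 92.0 and 125 against 242, 309 and 172 (-0.99, SE 0.30, adjusted p = 0.0389).

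4833439L19Rik (P33monox), a putative monooxygenase, had 3047, 1724 and 2755 against 4166, 4314 and 4039.8 (-0.78, SE 0.21, adjusted p = 0.0283). 2610002M06Rik (Chmp1b2), of the membrane-remodelling ESCRT-III family, had 672, 525 and 543 against 875, 860.2 and 1053 (-0.68, SE 0.18, adjusted p = 0.0243). E130309D02Rik had 752, 585 and 826 against 1097, 1181 and 1155 (-0.68, SE 0.18, adjusted p = 0.0235). Values of these loci did not overlap between the groups. 4932438A13Rik (Kiaa1109), another bridge-like lipid transfer protein and the longest member transcript (15883 nt), had 2734, 1153 and 1519 against 1828, 1919 and 2228 and was not called (-0.24, SE 0.28, adjusted p = 0.561). Without R159 replicate 1 it was (-0.58, adjusted p = 0.0373). 9530068E07Rik (Kct2), a transmembrane protein gene, was not called (-0.31, SE 0.14, adjusted p = 0.132), though its groups did not overlap.

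Calls among these falls depended on single libraries and on the processing. Without vehicle replicate 2, 1700017B05Rik (adjusted p = 0.0550), 2900026A02Rik (0.0669), D630045J12Rik (0.0922), B430306N03Rik (0.172), 4833439L19Rik (0.0932), 2610002M06Rik (0.0757) and E130309D02Rik (0.0994) were not called. Without vehicle replicate 1, D630045J12Rik (0.0707), B430306N03Rik (0.112), 4833439L19Rik (0.0760), 2610002M06Rik (0.0644) and E130309D02Rik (0.0650) were not. Without vehicle replicate 3, 2900026A02Rik (0.0720), D630045J12Rik (0.0625), 4833439L19Rik (0.0748), 2610002M06Rik (0.0988) and E130309D02Rik (0.0771) were not. B430306N03Rik (0.0938 and 0.0603) and 2610002M06Rik (0.0555 and 0.0563) were also not called without R159 replicate 2 or 3. With a replicate block B430306N03Rik was not called either (0.0581). 2610507B11Rik, 5031439G07Rik and 4931408D14Rik kept their call without any 1 library. With the length trend removed, however, 2610507B11Rik went from -0.88 to -0.41 (adjusted p = 0.0517), 5031439G07Rik from -0.87 to -0.41 (0.0758), 2900026A02Rik from -0.92 to -0.48 (0.0636) and 2610002M06Rik from -0.68 to -0.26 (0.230). D630045J12Rik and B430306N03Rik went to -0.57 (0.0870) and -0.76 (0.0942), and none of these 6 was then called. 1700017B05Rik, 4833439L19Rik and E130309D02Rik stayed called there. Without the empirical Bayes trend, 2900026A02Rik (0.0579), D630045J12Rik (0.0572), B430306N03Rik (0.0581), 4833439L19Rik (0.0760), 2610002M06Rik (0.0509) and E130309D02Rik (0.0531) were not called, nor were B430306N03Rik (0.0646) and 4833439L19Rik (0.0509) after upper quartile rescaling. The fold changes stayed below 0 in all these settings.

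Of the 6 members with the largest mean normalised value (not per length), 4 were called lower, 1 higher and 1 was not called. Over all genes with a mean of at least 100, 18.7% were called lower and 14.2% higher. Of the 6, 2610507B11Rik, 2900026A02Rik and 0610005C13Rik are given above. 4931406C07Rik, an ester hydrolase gene with the largest mean, had 9679.9, 12572 and 11339.9 in R159 and 16381, 18027 and 15775 in vehicle (-0.58, SE 0.17, adjusted p = 0.0311). C130074G19Rik had 10261, 9796 and 10642 against 13287, 14878 and 14182 (-0.46, SE 0.15, adjusted p = 0.0455). Groups were apart in both. 1600014C10Rik, a small membrane protein gene of mitochondria and endoplasmic reticulum, had 6748, 7605 and 8365 against 9597, 9836 and 8948, which do not overlap, and was not called (-0.33, SE 0.15, adjusted p = 0.138). 4931406C07Rik was not called without R159 replicate 3 (adjusted p = 0.0577) or vehicle replicate 1, 2 or 3 (0.0851, 0.144 and 0.0751), after upper quartile rescaling (0.0754) or without the empirical Bayes trend (0.0624). C130074G19Rik was not called without R159 replicate 2 or 3 (0.0788 and 0.0667) or vehicle replicate 1, 2 or 3 (0.0986, 0.197 and 0.127). Nor was it called with the length trend removed (0.0660), without the filter on low values (0.0518), after upper quartile rescaling (0.11), without the empirical Bayes trend (0.0750) or with its robust form (0.0544). Its call was lost with a replicate block as well (0.0828).

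Several genes of small proteins were among the coding members called higher. 1810037I17Rik (Aln), which encodes a micropeptide of the endoplasmic reticulum that binds the calcium pump SERCA, had 2183, 3479.5 and 1798 in R159 and 1211, 871 and 798 in vehicle. Its groups did not overlap (1.34, SE 0.26, adjusted p = 0.00827). 0610009B22Rik had 1444, 1773 and 1249 against 831, 811 and 876 (0.81, SE 0.17, adjusted p = 0.0115). 0610012G03Rik had 1642, 3729.7 and 2441 against 1432, 1296 and 1354 (0.86, SE 0.27, adjusted p = 0.0417). A430005L14Rik, with a transcript of 1098 nt, had 2259, 3302 and 2087 against 1365, 1245 and 1149.6 (1.00, SE 0.20, adjusted p = 0.00860). R159 replicate 2 was the highest library in each of these 4 loci. A430005L14Rik came from the role list of large proteins and was placed here by its short transcript. The other loci came from the list of small or mitochondrial proteins. From that same list, 2310061I04Rik and 2410004B18Rik were not called (0.21 and 0.54, adjusted p = 0.426 and 0.0965). Without R159 replicate 1, 2310061I04Rik was called (0.42, adjusted p = 0.0369).

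These rises shrank with the length trend removed, to 0.12 for 0610009B22Rik (adjusted p = 0.624), 0.51 for 0610012G03Rik (0.106) and 0.44 for A430005L14Rik (0.0624), none of them called; 1810037I17Rik stayed called. 0610009B22Rik was also not called without vehicle replicate 2 (0.0559). 0610012G03Rik was not called without R159 replicate 2 or 3 (0.0821 and 0.0853), vehicle replicate 1, 2 or 3 (0.0866, 0.115 and 0.105) or the empirical Bayes trend (0.0997). C730034F03Rik, coding in GENCODE and long non-coding in RefSeq, had 242, 129 and 109 against 51.4, 56.4 and 44.4 (1.56, SE 0.37, adjusted p = 0.0161). It lost its call without vehicle replicate 3 (0.0566) and with the length trend removed (1.12, 0.0819). 4833420G17Rik had 2221, 2196 and 1435 against 1256, 1258 and 1084 (0.68, SE 0.20, adjusted p = 0.0360), again with no overlap. Its call was lost without R159 replicate 1 or 2 (0.0677 and 0.0928) or vehicle replicate 1, 2 or 3 (0.0809, 0.0934 and 0.118), without the empirical Bayes trend (0.0828) and after rescaling without the 20 highest genes (0.112). The largest coding rise, 1810024B03Rik, had 209, 398 and 199.8 against 80.6, 50.3 and 82.9 (1.86, SE 0.35, adjusted p = 0.00771), with the groups well apart.

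In coding Rik loci the direction followed transcript length. Spearman's rho between log2 fold change and length of the longest GENCODE transcript was -0.56 over the 122 coding members and -0.50 over the other coding genes with a mean of at least 100. Under 1500 nt, 14 of 30 coding members were called higher and none lower, against 39.6% and 1.19% of the other coding genes. From 1500 to 3000 nt, 10 of 42 were higher and 4 lower, and from 3000 to 5000 nt 4 of 32 were higher and 4 lower. At 5000 nt or more, none of 18 was called higher and 5 were lower, against 3.09% and 37.1% of the other coding genes. In the shortest and the longest class the counts of coding members were thus near those of coding genes of like length. In the middle classes members were called higher more often than the other coding genes. It was 23.8% against 11.4% from 1500 to 3000 nt, and 12.5% against 5.81% from 3000 to 5000 nt. In the same classes they were called lower in 9.52% against 9.58%, and in 12.5% against 26.7%. These differences were not tested.

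In non-coding members the relation was weaker, with rho = -0.27, and -0.03 over the other non-coding genes. Under 1500 nt, 30 of 43 non-coding members were called higher (69.8%, others 43.9%). From 1500 to 3000 nt it was 25 of 60 (41.7%, others 39.7%), from 3000 to 5000 nt 13 of 34 (38.2%, others 59.6%), and among longer ones 2 of 7 (28.6%, others 47.4%). The members' share was thus above that of the other non-coding genes in the shortest class and below it in both longest classes. With the length trend removed, 48 non-coding members were called higher and none lower. Among coding ones 14 were then higher and 6 lower. Over all 15820 genes tested in that setting, 1495 were called higher and 1551 lower. The medians of transcript length were 2096.5 nt for non-coding and 2684.5 nt for coding members. These correlations are over genes, which share the 6 libraries and are not replicates.

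**Figure D4:**
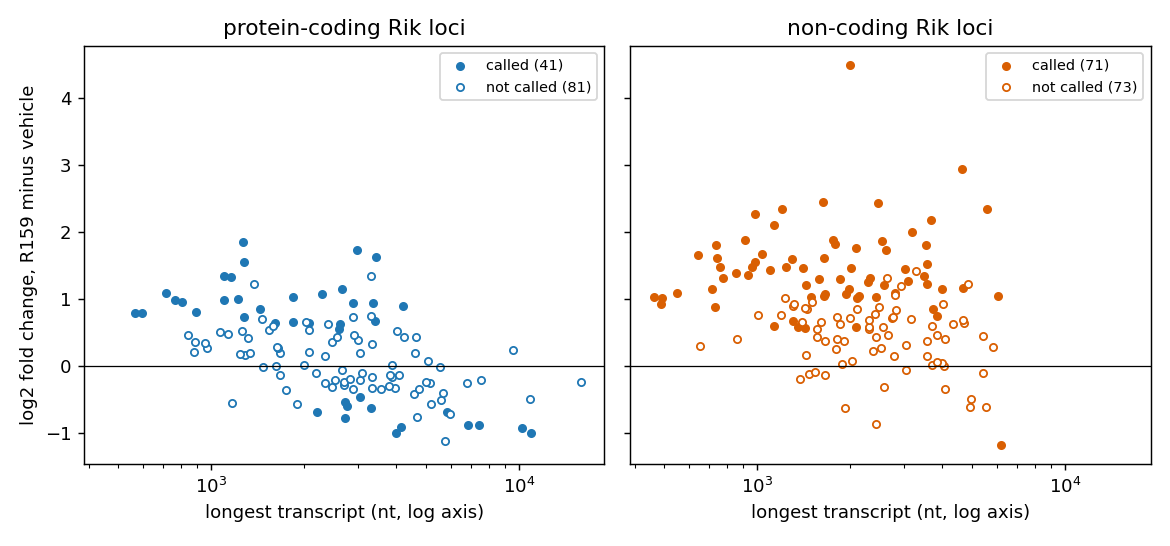
Log2 fold change (R159 minus vehicle) against the longest GENCODE transcript (nt, log axis) for 122 coding and 144 non-coding Rik loci, with filled points for called loci. Short coding loci lie mostly above 0 and long ones below it (rho = -0.56), and the non-coding loci lie mostly above 0 at all lengths.

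A pair of members belong to the interferon-inducible GTPase families, which act against intracellular pathogens. 9930111J21Rik2 (Irgb5) had 201, 129 and 153 in R159 and 270.1, 305 and 214 in vehicle. These did not overlap, but the locus was not called (-0.71, SE 0.26, adjusted p = 0.0716); without R159 replicate 1 it was (-0.88, adjusted p = 0.0321). F830016B08Rik (Ifgga4) had 2460.1, 877 and 526 against 297, 563 and 405. R159 replicate 1 was far above the rest, R159 replicate 3 lay within the vehicle range, and the locus was not called (1.35, SE 0.49, adjusted p = 0.0694). Without R159 replicate 3 it was (1.85, adjusted p = 0.0262). Of 11 named relatives, 7 were called lower and none higher, with a median of -1.05, where 19.7% of the other coding genes with a mean of at least 100 were called lower. Among the 7 were Irgm2 (-1.33, limma, adjusted p = 0.00516) and Gbp7 (-1.31, limma, adjusted p = 0.00437). F830016B08Rik, itself not called, thus had a value of opposite sign to the 7 relatives called lower. Of the relatives not called, Iigp1 had 0.13, the same sign as F830016B08Rik. Ifi47, Tgtp2 and Igtp, also not called, had -0.08, -0.26 and -1.05. The difference between F830016B08Rik and the relatives was not tested.

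Some members hardly differed. 1110004F10Rik had 1963, 1974 and 2073 in R159 and 2086, 1865 and 2109 in vehicle (-0.01, SE 0.14). 4930453N24Rik had 1344, 1245 and 1015 against 1155, 1216 and 1232 (-0.01, SE 0.16). 1700001C19Rik and 4933404O12Rik also had 0.00 and 0.01 (SE 0.24 and 0.29). These 4 were chosen for their small difference, and their groups overlapped. 0610040J01Rik had 1672, 2289 and 2104 against 1871, 1907 and 2160.0 (0.02, SE 0.17, adjusted p = 0.937). 2010003K11Rik had 1937, 5344 and 1571 against 5102, 3621 and 2765, with R159 replicate 2 above all others (-0.55, SE 0.42, adjusted p = 0.353). Without that library it was called lower (-1.09, adjusted p = 0.0278).

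R159 libraries were less alike than vehicle ones, at these loci as over all genes. Pearson's r over the members was 0.969 to 0.977 between vehicle libraries and 0.878 to 0.933 between R159 libraries, and over all genes it was 0.979 to 0.986 and 0.939 to 0.949. The median coefficient of variation of a member was 27.0% in R159 and 13.03% in vehicle, and it was larger in R159 in 207 of 271. The highest R159 value was over 3 times the lowest in 17 members, against 2 in vehicle. 4933411K16Rik had 406, 20.1 and 74.8 in R159, 4932422M17Rik 926, 186 and 243, and D030055H07Rik 793, 132 and 137. R159 replicate 1 was the high library in each, and none of the 3 was called. By contrast, A630031M04Rik had 794, 802 and 791 against 359.6, 362 and 302 (1.22, SE 0.17, adjusted p = 0.00382), with hardly any spread in R159.

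Per library, the median deviation of the non-coding members from their own mean was 0.59, 0.50 and 0.26 (log2) in R159 replicates 1 to 3 and -0.41, -0.42 and -0.50 in vehicle. The coding members had 0.04, 0.14 and 0.05 against -0.09, -0.12 and -0.07. Non-coding members took up 0.192%, 0.136% and 0.137% of all values in R159 and 0.0943%, 0.0975% and 0.0995% in vehicle. Every R159 library was thus above every vehicle library in this share, as it was for the other non-coding genes (2.27%, 2.93% and 1.88% against 1.54%, 1.17% and 1.16%). Coding members took up 0.259%, 0.210% and 0.210% against 0.285%, 0.286% and 0.272%, the other way round. R159 replicate 1 held the highest value of 63 of the 144 non-coding members, R159 replicate 2 of 49 and R159 replicate 3 of 23.

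**Figure D5:**
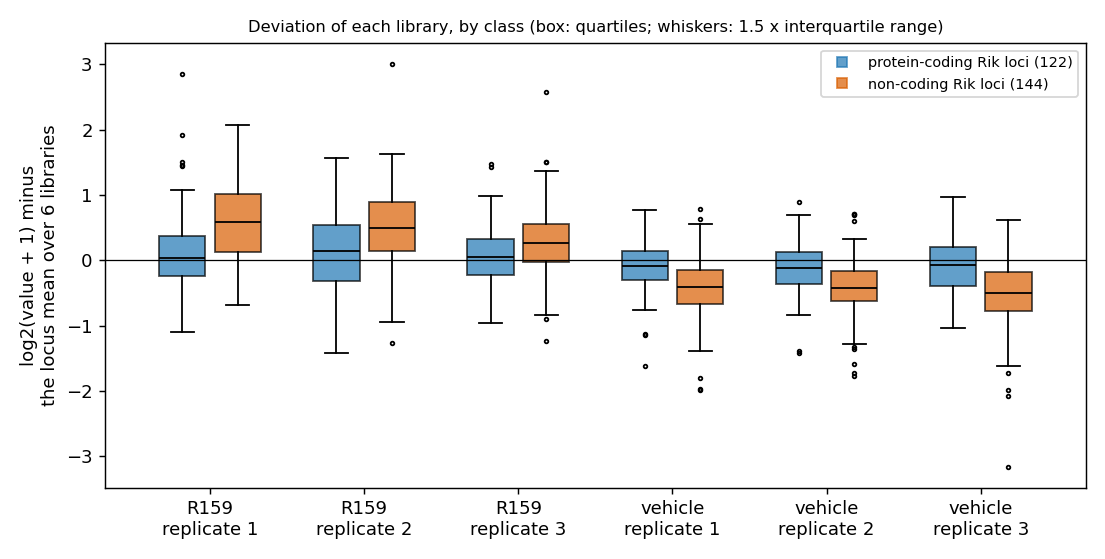
Deviation of each library from the mean of each locus (log2(value + 1)), by class; boxes are quartiles with the median, whiskers reach 1.5 times the interquartile range and points lie beyond. The non-coding medians are above 0 in all 3 R159 libraries (0.26 to 0.59) and below it in all 3 vehicle libraries (-0.50 to -0.41), and the coding medians stay within 0.15 of 0.

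Some other properties of the libraries moved with the groups. Estimated depth was 51.1 to 55.5 M reads in R159 and 65.6 to 76.4 M in vehicle. The mitochondrial share of values was 8.42% to 13.6% against 5.01% to 7.43%. Rows at 0 numbered 256 to 973 against 202 to 351, so the groups overlapped in this count. All 8 hepatocyte markers were present, 1 called higher and 1 lower. Summed erythroid markers were 40519 to 59895 in R159 and 12915 to 21814 in vehicle, with 4 of 5 called higher, and of 8 macrophage markers 2 were called lower and none higher. Of the 4 B and plasma cell markers 2 were called higher (summed 1299 to 5279 against 849 to 1125), and of the 4 stellate markers 2 were called lower. None of the T and NK, endothelial and cholangiocyte markers was called. Their part in the Rik results was not tested.

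Promoters of the members were read from RefSeq (GRCm38.p6), from 250 bases before to 50 bases after the start, for the 212 members that had one. The GC box core GGGCGG, sought on both strands, was in 55.7% of them and in 35.9% of all 27025 promoters. TATAAA was in 8.02% against 14.2%, CCAAT in 39.6% against 37.9% and TTCNNNGAA, the pattern bound by STAT factors, in 7.55% against 8.47%. Median GC content was 60.5% against 52.7%. Members called higher held GGGCGG in 65.1% of 83, those called lower in 76.9% of 13 and those not called in 46.6% of 116. These shares are a description, since a match is not a bound site. The 27025 promoters were not limited to genes with a mean of at least 100, as the members were. The differences from them therefore cannot be read as particular to Rik loci.

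Promoters are printed for a non-coding locus with a large rise and a GC-rich start (3110045C21Rik, chr1:169969159-169969458, plus strand, 65% GC and 27 CpG). The second is that of the Esrp2 antisense transcript (1810019D21Rik, chr8:106135150-106135449, plus strand, 60.3% GC and 6 CpG). The third is that of the locus with the largest fall (4931408D14Rik, chr19:37264046-37264345, minus strand, 49% GC and 6 CpG). Matches to the 4 patterns on either strand are in capitals.
3110045C21Rik: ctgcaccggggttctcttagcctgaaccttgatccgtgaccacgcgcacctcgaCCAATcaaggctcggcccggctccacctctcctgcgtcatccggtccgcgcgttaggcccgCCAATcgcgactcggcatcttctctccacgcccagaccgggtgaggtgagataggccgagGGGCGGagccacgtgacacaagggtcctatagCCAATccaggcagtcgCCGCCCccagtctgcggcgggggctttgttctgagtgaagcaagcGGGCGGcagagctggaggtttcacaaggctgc
1810019D21Rik: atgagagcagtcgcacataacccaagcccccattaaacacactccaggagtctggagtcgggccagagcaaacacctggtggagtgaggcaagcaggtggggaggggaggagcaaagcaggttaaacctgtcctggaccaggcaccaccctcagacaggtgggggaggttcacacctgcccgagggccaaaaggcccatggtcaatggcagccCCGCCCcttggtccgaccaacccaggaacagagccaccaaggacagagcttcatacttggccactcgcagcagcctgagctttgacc
4931408D14Rik: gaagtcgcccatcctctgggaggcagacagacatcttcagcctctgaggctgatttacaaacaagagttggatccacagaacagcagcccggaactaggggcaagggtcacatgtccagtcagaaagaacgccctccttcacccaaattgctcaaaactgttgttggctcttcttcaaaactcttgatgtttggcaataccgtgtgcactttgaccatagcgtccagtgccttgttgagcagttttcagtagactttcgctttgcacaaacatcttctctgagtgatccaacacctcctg

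The first holds CCAAT and GGGCGG, the second GGGCGG alone, on the minus strand, and the third none of the 4 patterns in this window. Both loci of the first pair were higher in R159 and the third was lower. The patterns did not go with direction, however. A330023F24Rik and E230016M11Rik, which had larger rises and are not printed, also held none of the 4 patterns in this window.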

How the data were processed

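Poly(A) RNA of mouse liver was made into 6 stranded libraries, 3 per group, and sequenced as paired-end reads, per the labels' protocols. The build was mm39 and the tools were STAR 2.7.8a, cutadapt, FastQC 0.11.9, R 4.2.3 and DESeq2 (version written as 3.5), per the submitters' processing notes, which give them no role or order. The sources used here name no counter or annotation and do not say whether strand was used. Deposited values are a signal, namely fractional estimated counts that the authors divided by 1 factor per sample. Of values under 12 and under 6.5 steps, 66.1% to 70.8% per library were whole multiples of the best-fitting step within 0.03 steps, so no count model was run. Depths rest on that step and are estimates.

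All genes with a mean of at least 10 (16594) were analysed here. The fit was made by limma 3.58.1 (R 4.3.3) to log2(value + 1), with group alone as a term and a trended empirical Bayes step; p-values were adjusted over all of these genes after Benjamini and Hochberg, with a threshold of 0.05. On this scale the change of low genes is understated. Members, lists and tests were chosen with earlier results of these data known. Named were the 10 largest called changes per direction with groups apart, the 6 members of highest mean, those next to the limit of 100, all in the role lists, the 4 of smallest change and the 5 largest with an opposite-strand gene; small RNA hosts and a few others were added after their values were seen. GENCODE M21 and RefSeq, both of an older build, gave only type, length, overlap and sequence. Alternatives were other pseudocounts, filters, scalings and empirical Bayes settings, a replicate block, each library left out, a threshold of 0.1 and removal of the length trend by lowess (span 0.3). Figures were drawn with matplotlib 3.10.9.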

Additional observations from a re-analysis of the deposited data

How the results depend on the processing

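All 61 members followed through the settings kept the sign of their called fold change, and 15 of the 42 called ones kept their call under every setting; over all 114 called members 34 did. Members called higher (99) fell to 62 with the length trend removed and ranged from 51 to 100 with 1 library left out, and non-coding members (70) then from 41 to 68. Coding members called higher (28) fell to 16 after rescaling without the 20 highest genes, 14 without the empirical Bayes trend and 14 with the length trend removed, and ranged from 10 to 31 with 1 library left out. Members called lower (15) fell to 8 after upper quartile rescaling, 4 without the trend and 6 with the length trend removed, and ranged from 3 to 20; coding members called lower (13) fell to 7, 3 and 6, and ranged from 2 to 17. Over all genes, those higher (2125) ranged from 920 to 2516, with 1495 with the length trend removed. Those lower (2354) ranged from 934 to 2904, with 1443 without the trend and 1551 with the length trend removed. Upper quartile rescaling shifted the median of all genes by 0.12 and gave 112 members higher and 8 lower (2694 and 1693 over all genes); rescaling without the 20 highest genes shifted it by -0.11 and gave 69 and 14 (1501 and 2495). With the length trend removed, 1810044D09Rik, 2300009A05Rik and 2310009B15Rik changed from 0.94, 0.79 and 0.79 to -0.04, -0.10 and -0.12, none called. The replicate numbers did not pair the libraries: deviations of same-numbered libraries correlated at -0.10, 0.03 and 0.11, and not each sample correlated best with its own number. With the replicate block 86 members were called higher and 11 lower (1912 and 2033 over all genes). The cause of these changes was not tested. The splits by class were added after seeing the data. The lowest value behind the 10 largest rises, 14.9 for D330041H03Rik in vehicle replicate 3, stands for about 17.7 estimated reads, where counting alone gives an SD of 23.8%.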
